A study of Mus musculus with 9 samples.

Results

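Among 9 mouse lymphomas profiled on 1 Affymetrix array each, the 3 with the most granulocyte granule mRNA were set against the 3 with the least. The granulocyte score of a lymphoma was the mean log2 intensity of S100a8, S100a9, Ngp and Camp. The 3 highest of the 9 scores made the granulocyte-rich class, the 3 lowest made the granulocyte-poor class, and the other 3 lymphomas lay between. The classes were therefore chosen by measured values of these same arrays, and differences between them are given as a description, with no test. The tumours came from transgenic mice on a background of 94% C57BL/6: 4 were Eμ-Myc positive and Eμ-TTP-1 negative, and 5 carried both transgenes and are called double-transgenic here. All 9 thus carried Eμ-Myc, a transgene that places the oncogene Myc under the immunoglobulin heavy chain enhancer Eμ, active in B cells, and Eμ also drives TTP in the second transgene. TTP is tristetraprolin, a protein that binds AU-rich mRNAs and promotes their decay, and the title of the series asks about it as a suppressor of Myc-driven lymphoma. Of the 3 granulocyte-rich lymphomas 2 were Eμ-Myc and 1 was double-transgenic, whereas the 3 granulocyte-poor ones were all double-transgenic. Class and genotype therefore overlap and cannot be fully told apart. RNA came from homogenised tumour aliquots, so that in every result fewer cells of a type and less RNA per cell cannot be told apart. The labels describe the samples as biological replicates, and Zfp36 mRNA, which encodes TTP, did not separate the genotypes (9.98 to 10.85 in double-transgenic and 10.20 to 11.01 in Eμ-Myc lymphomas).

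Granulocytes, chiefly neutrophils, are short-lived phagocytes that load antimicrobial proteins into granules while they mature in the bone marrow. Primary granules are filled at the promyelocyte stage, secondary and tertiary granules later, and the mRNAs of granule proteins fade as the cells mature, while S100a8 and S100a9 stay abundant in the cytoplasm of mature neutrophils. The transcription factors C/EBPα, C/EBPε and PU.1 are known to drive granule genes. In Eμ-Myc mice the malignant cells are B cells, and granulocytes found in a tumour aliquot are normally regarded as host cells.

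The 250 bases before the transcription start are shown for the 4 score genes, which define the classes, and for Ltf and Lcn2 of the secondary granules and Mpo of the primary granules, which are granulocyte genes outside the score. S100a8 and S100a9 encode the 2 subunits of calprotectin, Ngp encodes neutrophilic granule protein, Camp the cathelicidin peptide precursor, Ltf lactoferrin, Lcn2 neutrophil gelatinase-associated lipocalin and Mpo myeloperoxidase. The sequences are from RefSeq on GRCm38.p6, run 5′ to 3′ on the gene's own strand, and have in capitals each match to TTGCNNAA, a C/EBP-type motif, or to GAGGAA, a PU.1-type motif, on either strand.
S100a8, chr3:90668821-90669070, plus strand: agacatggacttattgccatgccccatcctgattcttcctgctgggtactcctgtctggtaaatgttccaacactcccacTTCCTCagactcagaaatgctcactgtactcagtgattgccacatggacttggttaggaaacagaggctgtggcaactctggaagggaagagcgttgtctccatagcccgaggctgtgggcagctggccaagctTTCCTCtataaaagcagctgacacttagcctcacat
S100a9, chr3:90695722-90695971, minus strand: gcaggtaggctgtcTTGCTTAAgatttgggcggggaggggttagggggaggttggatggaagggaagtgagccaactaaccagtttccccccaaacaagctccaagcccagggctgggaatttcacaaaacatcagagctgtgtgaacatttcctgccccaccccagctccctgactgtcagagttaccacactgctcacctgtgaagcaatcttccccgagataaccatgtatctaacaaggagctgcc
Ngp, chr9:110419558-110419807, plus strand: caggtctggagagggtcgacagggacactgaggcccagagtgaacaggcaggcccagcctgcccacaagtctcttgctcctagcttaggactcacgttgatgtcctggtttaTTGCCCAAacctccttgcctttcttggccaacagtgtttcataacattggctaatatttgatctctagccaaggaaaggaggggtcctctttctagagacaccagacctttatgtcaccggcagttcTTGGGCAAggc
Camp, chr9:109849457-109849706, minus strand: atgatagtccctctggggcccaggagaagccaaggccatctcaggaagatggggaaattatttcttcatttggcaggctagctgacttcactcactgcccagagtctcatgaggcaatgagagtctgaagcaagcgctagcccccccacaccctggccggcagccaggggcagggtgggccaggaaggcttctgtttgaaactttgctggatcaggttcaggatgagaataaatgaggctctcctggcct
Ltf, chr9:111019042-111019291, plus strand: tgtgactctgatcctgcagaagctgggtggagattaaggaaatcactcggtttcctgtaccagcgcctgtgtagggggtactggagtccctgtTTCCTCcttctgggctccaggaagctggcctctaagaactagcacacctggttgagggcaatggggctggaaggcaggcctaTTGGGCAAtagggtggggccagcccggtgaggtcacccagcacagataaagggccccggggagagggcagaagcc
Lcn2, chr2:32387740-32387989, minus strand: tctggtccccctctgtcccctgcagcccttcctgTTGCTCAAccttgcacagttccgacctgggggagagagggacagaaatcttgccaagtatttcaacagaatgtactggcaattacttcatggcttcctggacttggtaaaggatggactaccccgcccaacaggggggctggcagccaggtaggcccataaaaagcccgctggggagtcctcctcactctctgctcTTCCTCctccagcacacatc
Mpo, chr11:87793534-87793783, plus strand: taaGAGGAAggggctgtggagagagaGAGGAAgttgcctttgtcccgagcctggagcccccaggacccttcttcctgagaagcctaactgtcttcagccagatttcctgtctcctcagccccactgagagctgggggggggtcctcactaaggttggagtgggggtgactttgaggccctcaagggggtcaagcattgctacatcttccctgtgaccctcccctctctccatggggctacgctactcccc

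TTGCNNAA was found in S100a9 at -236, in Ngp at -138 and -11, in Ltf at -75 and in Lcn2 at -216, counted to the first base of the match from the start. GAGGAA was found in S100a8 at -170 and -36, in Ltf at -157, in Lcn2 at -20 and in Mpo at -247 and -224. No matches overlapped, and the Camp window held neither motif. Over all 32851 promoters of the table, the same window held TTGCNNAA in 9.6% and GAGGAA in 23.3%. Among compared genes with a promoter in the table, the shares were 9.0% and 25.7% of 8327. Of the 128 genes counted as higher in granulocyte-rich lymphomas that had a promoter, 14.8% held TTGCNNAA and 35.9% held GAGGAA. Of the 112 counted as lower, 7.1% and 27.7% did. A match of letters is a description and not a binding site.

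The score ran from 11.60 to 4.68 on the log2 scale. In the granulocyte-rich class it read 11.60 in Eμ-Myc replicate 3, 11.31 in double-transgenic replicate 2 and 10.91 in Eμ-Myc replicate 2. Between the classes lay Eμ-Myc replicate 4 at 10.19, double-transgenic replicate 4 at 7.42 and Eμ-Myc replicate 1 at 6.54. The granulocyte-poor lymphomas read 6.05 in double-transgenic replicate 1, 5.20 in replicate 5 and 4.68 in replicate 3. The largest step, 2.76, did not fall at a class border but between Eμ-Myc replicate 4 and double-transgenic replicate 4. The step below the rich class was 0.72 and the step above the poor class 0.50. By score alone, Eμ-Myc replicate 4 thus stood much nearer the rich class than the poor one. The mean score by genotype was 9.81 ± 2.25 for the Eμ-Myc group (SD, n = 4) and 6.93 ± 2.66 for the double-transgenic group (SD, n = 5).

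Values of single genes below are log2 intensities in the order of the score: first the rich class (Eμ-Myc replicate 3, double-transgenic replicate 2, Eμ-Myc replicate 2), then the lymphomas between (Eμ-Myc replicate 4, double-transgenic replicate 4, Eμ-Myc replicate 1), then the poor class (double-transgenic replicates 1, 5 and 3). A value under 4, an intensity of 16, is treated as background. S100a8 read 13.24, 13.35 and 13.34 in the rich class, 11.80, 10.001 and 8.79 between, and 7.91, 7.401 and 6.88 in the poor class. It was nearly level over the 3 rich lymphomas and above background in all 9. S100a9 read 12.40, 12.65 and 12.74, then 11.19, 9.15 and 8.05, then 7.24, 6.14 and 4.76. It followed S100a8 closely. Ngp read 10.88, 10.44 and 9.79, then 9.38, 6.43 and 5.20, then 5.03, 3.29 and 3.12, and was at background in double-transgenic replicates 5 and 3. Camp read 9.88, 8.82 and 7.76, then 8.37, 4.11 and 4.13, then 4.01, 3.98 and 3.97. Camp was therefore measured only in the 4 lymphomas with the highest scores and sat at the background limit in the other 5. The differences of class means, which the rule fixed, were 5.91 for S100a8, 6.55 for S100a9, 6.56 for Ngp and 4.83 for Camp.

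**Figure D1:**
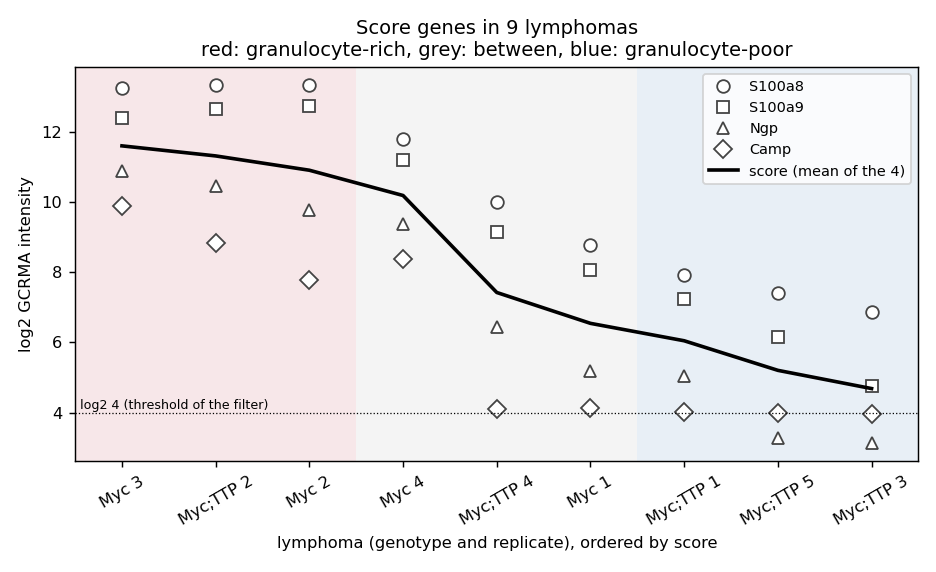
The log2 intensity (vertical axis) of S100a8, S100a9, Ngp and Camp (symbols) and their mean, the score (line), in each of the 9 lymphomas in order of score, with granulocyte-rich in red, between in grey and granulocyte-poor in blue. The score falls from 11.60 to 4.68, its largest step, 2.76, lies between Eμ-Myc replicate 4 and double-transgenic replicate 4, and Camp is at the background limit in the last 5 lymphomas.

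Across 10168 other genes, 161 were counted as higher and 139 as lower in the granulocyte-rich lymphomas, which is 1.58% and 1.37% of the genes compared. A gene was counted when all 3 rich values lay beyond all 3 poor values and the class means differed by at least 1 on the log2 scale, a 2-fold change. The counts given for gene lists below stand beside these shares of 1.58% and 1.37%. Where a list has few or no genes counted, nothing is read from the count. Without the size limit, values of the classes did not overlap for 490 genes higher (4.82%) and 697 genes lower (6.85%). The median difference of all genes was -0.04, with a 5th percentile of -0.94 and a 95th of 0.92. The rich class was the more varied one: correlations of log2 values between 2 arrays, across genes, ran from 0.878 to 0.914 within it and from 0.952 to 0.962 within the poor class. Of genes counted as higher that had other probe sets above background, 60 of 61 such probe sets had the same sign and 38 met the same rule. Of those counted as lower, 81 of 81 had the same sign and 50 met it.

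Granulocyte genes outside the score were often higher in the rich class. The 4 lists of granulocyte genes (primary granules, secondary and tertiary granules, receptors and inflammatory genes, oxidase and cytoplasmic proteins) held 46 genes that passed the filter on low values. Of these, 9 were counted as higher (19.6%, beside 1.58% of all genes), 39 had a positive difference, and the median difference was 1.04. As lower 0 were counted, which is near the 1.37% of all genes, so nothing is read from it. Since the lists share their source cells with the score genes and passed the filter partly through the rich arrays, these counts are no independent support. The same 9 were counted without double-transgenic replicate 2, a setting that eases the rule and could hardly lose them. With the 4 highest against the 4 lowest scores 7 of them were counted. The label of granulocyte-rich is a name for the score of the 4 genes and is not backed by these counts. Cxcr2, a defining chemokine receptor of mature neutrophils, was at background on every array (2.52 to 2.65). Csf3r, the receptor of the granulocyte growth factor G-CSF, ranged over 5.41 to 6.40 with a class difference of 0.38.

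Of 11 secondary and tertiary granule genes compared, 5 were counted as higher and 11 had a positive difference, with a median of 2.31. Ltf read 6.00, 7.32 and 6.11 in the rich class, 6.12, 2.17 and 2.07 between, and 2.11, 1.88 and 2.08 in the poor class. It was measured in the 4 lymphomas of highest score and at background in the rest, so that its difference of 4.46 depends on how background is read, and was 2.48 with values under 4 set to 4. Lcn2 read 9.33, 8.77 and 7.98, then 7.97, 5.46 and 4.50, then 4.51, 4.32 and 4.31. It fell in nearly the same order as the score, with a difference of 4.32 and class means of 8.70 ± 0.68 and 4.38 ± 0.12 (SD, n = 3 each). Hp, which encodes haptoglobin, a hemoglobin-binding protein of granules and plasma, read 9.03, 8.64 and 6.51, then 8.15, 4.58 and 3.21, then 4.78, 6.21 and 2.69, and its classes came within 0.30 of each other. Stfa2l1 of the stefin A protease inhibitors differed by 2.72 and Wfdc21 by 2.31.

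Other members of that list were uneven. Chil3, a chitinase-like protein of neutrophils and macrophages, read 12.59, 8.19 and 9.06, then 7.70, 5.63 and 3.86, then 10.85, 4.401 and 3.83. Its classes overlapped because the granulocyte-poor double-transgenic replicate 1 exceeded 2 of the rich lymphomas. Mmp9, the gelatinase of tertiary granules, reached 10.58 in Eμ-Myc replicate 3, while the other 8 lymphomas read 3.57 to 6.16. The lowest differences were those of Cybb, the oxidase subunit gp91phox, at 0.25, Pglyrp1 at 0.57 and Adam8 at 0.99. Of 24 listed genes 5 were not analysed here and 8 did not pass the filter. Among the latter, Mmp8, the neutrophil collagenase, read 4.64, 5.54 and 4.30 in the rich class and 2.08 to 2.15 in all 6 others. Cd177 read 3.25 to 3.70 in the rich class and 2.25 to 2.37 elsewhere, which is below the background limit throughout. The other members under the filter did not set the rich class apart in this way. Itgam read 3.10, 5.81 and 2.45 in the rich class, and Stfa3 4.15, 9.11 and 2.87, with 5.83 in double-transgenic replicate 4. Arg2 was over 4 in Eμ-Myc replicate 3 only, at 4.20. Olfm4, Ltb4r1 and Fcnb were at background on all arrays.

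Primary granule genes had 2 of 6 compared members counted as higher and a median difference of 0.80. Mpo read 7.62, 10.78 and 6.85 in the rich class, 6.42, 2.65 and 2.71 between, and 2.72, 2.27 and 2.26 in the poor class. Its difference was 6.00, or 4.41 with values under 4 set to 4. Prtn3, which encodes the serine protease proteinase 3, read 6.35, 10.60 and 5.58, then 4.22, 4.38 and 2.95, then 2.96, 2.93 and 2.91. Both were highest in double-transgenic replicate 2, by over 3 log2 units, and above background in the other rich lymphomas too. Ctsg, the protease cathepsin G, did not pass the filter and read 5.58, 7.57 and 4.73 in the rich class against 2.27 to 3.47 elsewhere. Elane, neutrophil elastase, read 6.56 in double-transgenic replicate 2 and 2.24 to 2.66 elsewhere, and Ms4a3, a gene of granulocyte and monocyte progenitors, 5.55 there and 1.86 to 2.24 elsewhere. Cst7, the protease inhibitor cystatin F, differed by 1.11 and reached 10.72 in the same lymphoma. Lyz2, lysozyme of granulocytes and macrophages, was high on all arrays (13.23 to 15.13), with a difference of -0.64. Without double-transgenic replicate 2 the list's median was 0.08.

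**Figure D2:**
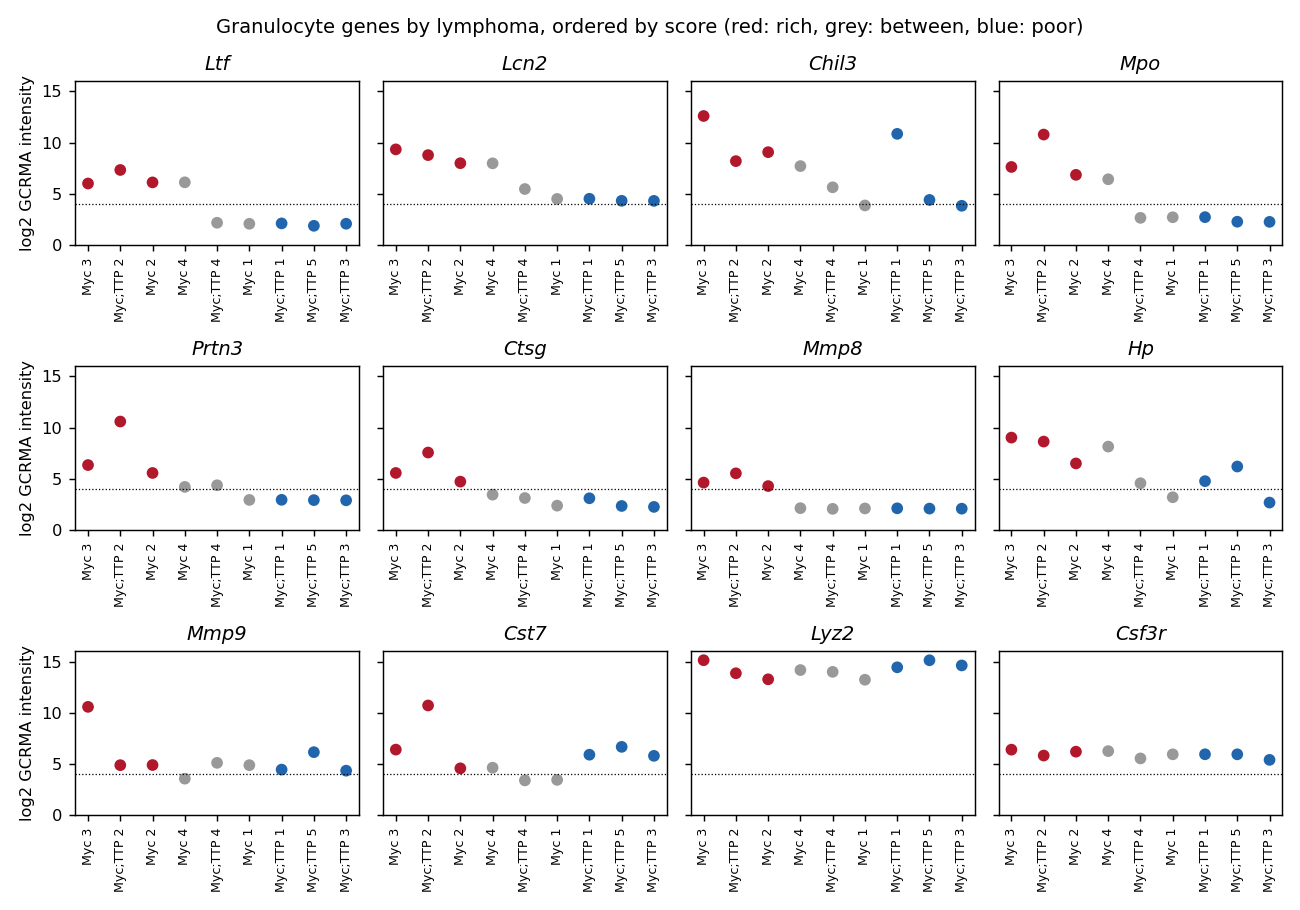
Log2 intensity (vertical axis) of 12 granulocyte genes in the 9 lymphomas in order of score, with 1 point per array, rich in red, between in grey and poor in blue, and a dotted line at the background limit of 4. Ltf, Mpo and Lcn2 are high in the first 4 lymphomas, Prtn3, Ctsg and Cst7 peak in double-transgenic replicate 2, Mmp9 in Eμ-Myc replicate 3, and the classes overlap in Lyz2 (13.23 to 15.13) and Csf3r (5.41 to 6.40).

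Receptors and inflammatory genes of mature neutrophils showed 0 of 13 compared members counted in either direction, with a median difference of 1.05, and 0.11 without the filter. Clec4d, a C-type lectin receptor, differed by 2.64 and read 8.73 in Eμ-Myc replicate 3 but 4.20 in Eμ-Myc replicate 2. Fpr2, a formyl peptide receptor, differed by 1.89 and was again highest in Eμ-Myc replicate 3, at 9.80, beside 5.10 and 5.91 in the remaining rich lymphomas. Pilra differed by 1.65. At the low end stood Clec4e (-0.41), Clec7a (-0.37) and Cd300lf (-0.18). Of the oxidase and cytoplasmic genes, 2 of 16 were counted as higher with a median of 0.49. These were Alox5ap, which activates leukotriene synthesis, at 2.98, and Anxa1, annexin A1, at 1.68. Alox5ap read 9.40, 11.71 and 9.10, then 9.08, 10.86 and 6.87, then 7.61, 7.29 and 6.39. Padi4, the histone citrullinase of neutrophils, overlapped, with 2.90, 3.79 and 8.57 in the rich class and 2.96 to 3.16 in the poor class. The lowest were Gda (-0.43), Anxa3 (-0.17) and Rac2 (0.07).

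Of 11 myeloid transcription factor genes, 1 was counted as higher, Klf4 at 1.22, and the median difference was 0.61. Fosl2 differed by 0.91 and Spi1, which encodes PU.1, by 0.79, with Spi1 at 9.85 to 11.99 on all arrays. Cebpa, which encodes C/EBPα, overlapped between the classes and differed by -0.05. Gfi1, a repressor in granulocyte and lymphoid development, dropped to 3.17 in double-transgenic replicate 2, with 9.91 to 10.98 on the remaining 8 arrays. Nfe2, an erythroid and megakaryocytic factor, read 12.44 in that lymphoma, 7.67 in double-transgenic replicate 4 and 1.86 to 1.90 in the rest. Growth factors and chemokines that act on granulocytes had 0 of 8 counted and a median of 0.02 (Pf4 1.64, Vcam1 0.24, Icam1 0.14, Cxcl12 -0.48, Cxcl1 -0.26 and Csf1 -0.03). Csf3, the gene of G-CSF, read 2.32 to 2.43 on all arrays, which is background. Of the alarmins and receptors related to calprotectin, 9 of 9 had a positive difference and 0 were counted. S100a6 and S100a4, members of the same S100 gene family, had the largest differences, 3.09 and 3.06, and overlapped between the classes. They were followed by Tlr4 (1.05), while Bsg (0.14), Cd36 (0.17) and Myd88 (0.34) were lowest.

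The granule genes did not keep one ratio to S100a8 across the 4 lymphomas of highest score. The difference between S100a9 and S100a8 varied with an SD of 0.11 over those 4 arrays. The corresponding SD was 0.55 for Ngp, 0.71 for Lcn2, 0.81 for Ltf and 1.05 for Camp, and 1.70 for Mpo, 1.985 for Chil3, 2.36 for Prtn3 and 2.86 for Mmp9. Relative to S100a8, Mpo stood 2.45 and Prtn3 3.49 above the 4-array mean in double-transgenic replicate 2. Ngp, Camp and Lcn2 stood lowest in Eμ-Myc replicate 2, at -0.74, -1.35 and -0.93. The 2 calprotectin genes thus kept nearly the same difference on the 4 arrays, and Mpo, Chil3, Prtn3 and Mmp9 did not, with Mmp9 below the background limit in Eμ-Myc replicate 4. These are descriptions over 4 arrays.

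Genes whose log2 values most resembled the score over the 9 lymphomas were Lcn2 (Pearson r = 0.98), Ltf (0.95), Cast (0.92), Selenok (0.92), Mpo (0.92), Dnajc3 (0.91), Mef2a (0.91), Pxn (0.90), Ppt2 (0.89) and Cd99l2 (0.88). They were picked for this likeness from 10168 genes, and no test is given. As the scores fall into 4 high and 5 low values, r mostly reads that gap. Of those that are not granule genes most differed by less than 1 between the classes: Selenok, a selenoprotein of the endoplasmic reticulum, differed by 0.55, Dnajc3, a chaperone there, by 0.73, and Cast, calpastatin, by 0.51. Pxn, the adhesion adaptor paxillin, was counted as higher at 1.25, with 11.55, 12.04 and 11.87 in the rich class and 10.55, 10.74 and 10.42 in the poor class. Cd99l2 differed by 1.43 on the probe set compared and by -0.27 on its other one.

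Markers of monocytes and macrophages differed gene by gene. Of 14 monocyte genes 2 were counted as higher, with a median of 0.66, and of 22 macrophage genes 3, with a median of 0.31, beside 1.58% of all genes and a median of -0.04. With so few genes counted, nothing is read from these shares. F13a1, coagulation factor XIII of monocytes and macrophages, read 9.51, 10.40 and 7.06 in the rich class, 9.48, 7.69 and 9.22 between, and 5.16, 6.02 and 2.27 in the poor class. Adgre1, the gene of a classical macrophage surface antigen, read 8.13, 9.07 and 8.28, then 9.97, 9.29 and 8.02, then 5.93, 6.24 and 3.47. Mrc1, the mannose receptor CD206, read 9.08, 10.87 and 9.07, then 10.75, 10.58 and 10.26, then 5.39, 7.30 and 7.63. In all 3 genes the lymphomas between had values near or above the lowest rich value, also those with low granule genes, and the poor class stood apart. Cd163, a hemoglobin scavenger receptor, differed by 2.63 and Emilin2 by 2.94.

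Other macrophage genes did not separate the classes. C1qa, C1qb and C1qc, the chains of complement C1q, had differences of -0.04, 0.18 and 0.43, and C1qa read 10.51 to 12.72 on all arrays. Csf1r, the receptor of the macrophage growth factor, differed by 0.20 and Cd68 by 0.28. Gpnmb (-1.22), Timd4 (-0.81) and Apoe (-0.38) were at the low end. The summed level of the list, as its mean log2 value, was 8.98 to 10.17 in the rich class and 8.22 to 9.16 in the poor class. For the monocyte list these ranges were 8.31 to 9.88 and 7.81 to 8.72, and for its low end Ms4a4c had -0.66, Ms4a6b -0.55 and Nr4a1 -0.44. The part of monocytes and macrophages in the differences of genes they share with granulocytes was not tested.

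Beyond the myeloid lists, the genes with the largest positive differences included Xist, the RNA that coats the inactive X chromosome of female cells. It read 14.40, 14.63 and 14.27 in the rich class, 2.77, 2.65 and 2.77 between, and 2.82, 14.15 and 2.71 in the poor class. Eif2s3y, Kdm5d and Uty of the Y chromosome were at background in the same 4 lymphomas and high in the other 5. All 3 rich lymphomas were thus Xist-positive and 1 of 3 poor ones was, and the part of sex in other differences was not tested. Ifitm6, an interferon-induced transmembrane protein of myeloid cells, read 7.84, 7.59 and 8.65, then 6.30, 4.06 and 2.41, then 5.60, 4.53 and 2.57. Plaur, the urokinase receptor, read 10.08, 9.20 and 8.79, then 7.12, 7.43 and 5.83, then 5.80, 6.06 and 6.70. Both were well separated between the classes, with gaps of 2.00 and 2.09 between the nearest rich and poor values.

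The remaining named genes of this direction were Cyp27a1, a sterol hydroxylase (3.43), Kif13a, a kinesin motor (3.39), Clec4a2, an inhibitory lectin receptor (3.39), Ahnak, a large scaffold protein (3.38), and Ccr1, a chemokine receptor of myeloid cells (3.15). Ahnak was abundant throughout, at 10.79 to 13.83 in the rich class and 8.33 to 9.62 in the poor class. Clec4a2 was at background in the whole poor class (2.98 to 3.58) and read 6.22 to 7.89 in the other 6 lymphomas. Ccr1 was highest in double-transgenic replicate 4, which lies between the classes, at 8.89 against 5.62 to 7.64 in the rich class. With 4 lymphomas at each end, Xist, F13a1 and Cyp27a1 no longer met the rule.

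The genes with the largest negative differences had diverse roles, from ion channels to lymphocyte regulators. Cacna1e, the pore of a voltage-gated calcium channel, read 5.66, 3.31 and 3.07 in the rich class, 4.84, 6.56 and 12.53 between, and 8.84, 10.64 and 11.06 in the poor class. Lef1, a Wnt pathway transcription factor of precursor lymphocytes, read 11.002, 4.90 and 2.06, then 10.76, 10.84 and 10.38, then 11.98, 12.39 and 12.09. Its mean difference of -6.17 came from 2 rich lymphomas: in Eμ-Myc replicate 3 it lay 0.98 below the lowest poor value, and with 4 lymphomas at each end it did not meet the rule. Pcp4, a calmodulin regulator, read 3.57, 2.78 and 7.08, then 2.81, 2.79 and 3.02, then 12.76, 10.15 and 7.80, and was therefore above background in the poor class and Eμ-Myc replicate 2 only.

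Ppp1r9a, the actin-binding protein neurabin, read 3.78, 3.12 and 3.47, all background, then 3.47, 4.86 and 3.38, and 7.28, 9.47 and 6.66 in the poor class. Grip1, a scaffold protein, read 4.90, 2.21 and 5.16, then 6.25, 8.55 and 8.54, then 7.99, 9.25 and 9.92. Mucl2 and Prol1, which encode secreted mucin-like proteins, shared a pattern: Mucl2 read 3.12, 8.83 and 3.89, then 9.79, 10.78 and 2.88, then 9.04, 11.02 and 10.05. Prol1 read 2.66, 5.16 and 2.37, then 7.70, 8.09 and 2.37, then 7.14, 7.88 and 6.75. Both were therefore low in Eμ-Myc replicates 1, 2 and 3 and higher in every other lymphoma, which includes the granulocyte-rich double-transgenic replicate 2.

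The other named genes of this direction were Mpp3 (-4.61), a membrane scaffold, Dnah8 (-4.56), a dynein heavy chain, Acot1 (-4.20), an acyl-CoA thioesterase, Ifi213 (-4.19) of the interferon-inducible PYHIN family, Slamf7 (-4.15), a surface receptor of lymphocytes, Bcar3 (-3.96), a signalling adaptor, Slc30a4 (-3.89), a zinc transporter, and Zap70 (-3.83), a kinase of the T cell receptor. The smallest gaps between the classes were 0.14 for Slc30a4, 0.21 for Mucl2 and 0.23 for Ifi213. Slamf7 read 10.48, 2.88 and 8.86 in the rich class and 10.93 to 12.35 in the poor class, so that double-transgenic replicate 2 made most of its difference. With 4 at each end, Lef1, Pcp4, Mucl2, Mpp3, Dnah8, Ppp1r9a, Acot1, Ifi213, Prol1 and Zap70 did not meet the rule.

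**Figure D3:**
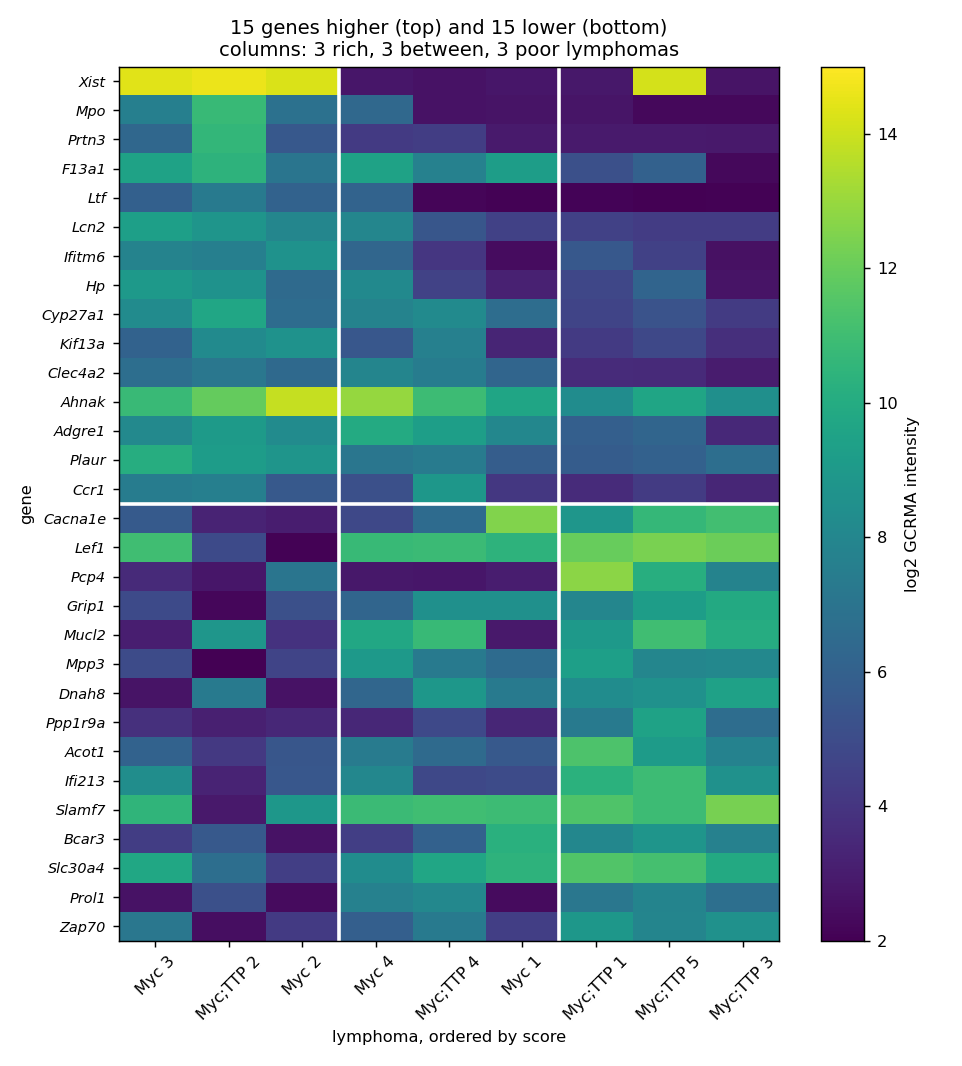
Log2 intensity (colour) of the 15 named genes higher (top) and 15 lower (bottom) in granulocyte-rich lymphomas, with genes as rows and the 9 lymphomas as columns in order of score. Mpo and Ltf are high in the 3 rich lymphomas and Eμ-Myc replicate 4, Xist is also high in the poor double-transgenic replicate 5, and Cacna1e is highest in Eμ-Myc replicate 1, which lies between the classes.

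B cell identity genes were high in both classes. Cd79a and Cd79b, the signalling chains of the B cell receptor, read 13.24 to 14.06 and 14.37 to 15.30 over the 9 arrays, and Ebf1 and Blnk 10.80 to 12.57 and 12.70 to 13.60. Of 16 pan-B genes 1 was counted as lower and 0 as higher, with a median of -0.17. That gene was Blk, a B cell kinase, at -2.35. Fcrla (-2.93) and Cd72 (-2.28) were also at the low end of the list, and at the high end stood Ralgps2 (0.75), Cd79b (0.21) and Pax5 (0.15). The list's mean log2 value was lowest in double-transgenic replicate 2, 10.77, and 11.52 to 12.44 in the other 8 lymphomas. Cd22, an inhibitory B cell receptor, read 6.99 there and 11.91 to 12.93 elsewhere.

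Genes of the precursor and mature B cell stages differed in single members. Of 15 precursor B cell genes 3 were counted as lower (Lef1, Irf4 and Bach2) and 1 as higher, Igll1, with a median of -0.22. Igll1, part of the surrogate light chain, was read by a probe set that can hybridise to related transcripts, and owed its difference of 3.71 to double-transgenic replicate 2 at 15.34, beside 6.06 and 6.14 in the other rich lymphomas. Rag1, of the V(D)J recombinase, read 13.63, 10.59 and 3.05, then 8.49, 13.39 and 14.76, then 10.66, 14.26 and 15.23. Its classes overlapped, and the low value of Eμ-Myc replicate 2 recurred in Rag2 (2.45), Il7r (5.64) and Sox4 (9.41). Erg (1.39) and Cecr2 (0.84) followed Igll1 at the high end of the list.

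Of 13 mature B cell genes, Ltb, which encodes lymphotoxin β (-3.51), and Cxcr5, a follicle-homing receptor (-1.05), were counted as lower. Ltb read 10.11, 6.93 and 7.49, then 9.21, 8.81 and 12.68, then 10.39, 11.82 and 12.83. Cr2, complement receptor 2, differed by -3.45 and overlapped, while S1pr1 (1.01), Klf2 (0.86) and Tnfrsf13b (0.46) stood at the high end. The list's median was -0.38, and -0.01 without double-transgenic replicate 2. Of 10 plasma cell genes, Xbp1 (1.11) and Mzb1 (1.37), which serve antibody secretion, were counted as higher, and Irf4 (-2.13) and Slamf7 as lower. The median was -0.79, or -0.37 without that lymphoma. Edem1 (0.78) and Derl3 (-2.42) were not counted. Bcl2, a survival gene outside these lists that was picked after its values were seen, read 8.48, 3.96 and 9.44 in the rich class and 9.77 to 9.99 in the poor class, a difference of -2.57 that its 3 other probe sets shared in sign.

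Class II antigen presentation genes all had a negative difference, 10 of 10, with a median of -0.61 and 0 counted. This rested on 1 lymphoma: without double-transgenic replicate 2 the median was 0.08. Cd74, the invariant chain, read 14.54, 10.80 and 14.10, then 13.77, 12.00 and 14.27, then 13.83, 14.01 and 13.52. Ciita, the master activator of class II genes, read 10.28, 4.41 and 8.33 in the rich class and 9.01 to 10.05 in the poor class, with a difference of -1.91. H2-Eb1 (-1.195) and H2-DMb2 (-1.14) came next and H2-Oa (-0.40), H2-DMa (-0.45) and H2-Aa (-0.46) were nearest to 0.

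**Figure D4:**
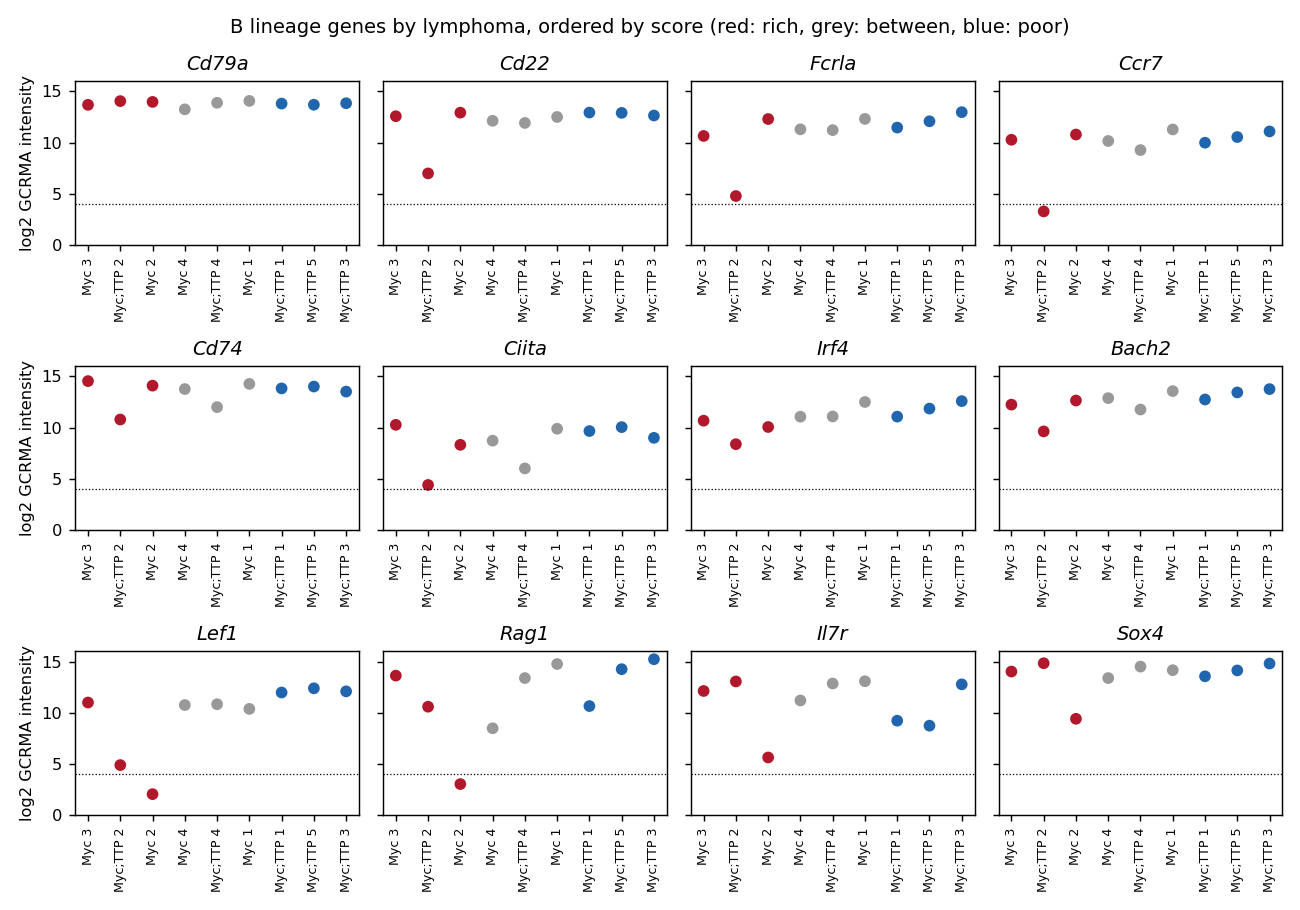
Log2 intensity (vertical axis) of 12 B lineage genes in the 9 lymphomas in order of score, with 1 point per array, rich in red, between in grey and poor in blue, and a dotted line at the background limit of 4. Cd79a is level on all arrays, Cd22, Fcrla, Ccr7 and Ciita are lowest in double-transgenic replicate 2, and Lef1, Rag1, Il7r and Sox4 are lowest in Eμ-Myc replicate 2.

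Lymphoid markers other than those of B cells were mostly low. Of 9 T cell genes, Zap70, Cd28 (-2.13) and Cd3d (-1.86) were counted as lower, beside 1.37% of all genes. With so few genes counted, nothing is read from this. The median was -0.42, or -1.36 without double-transgenic replicate 2. Among members under the filter, Bcl11b and Ubash3a were highest in the rich double-transgenic replicate 2, at 11.12 and 5.65, and Cd3g in Eμ-Myc replicate 4, at 6.38. Cd3e, a defining chain of the T cell receptor complex, was at background on all arrays (2.75 to 3.43), and Cd3d was highest in Eμ-Myc replicate 4, at 8.02, with 2.86 to 4.01 in the rich class and 4.68 to 5.64 in the poor class. The mean log2 value of the list was 4.61 to 5.70 in the rich and 6.06 to 6.67 in the poor lymphomas. At the high end stood Thy1 (1.07), Il7r (0.03) and Cd8a (-0.01). Of the 2 natural killer genes compared, Klrd1 (-2.40) was counted as lower and Ccl5 (-2.06) was not, and Ncr1, a defining marker, read 2.14 to 2.21 on all arrays. The part of these cells in the lower genes was not tested.

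Of 7 dendritic cell genes 1, Ccr9 (1.10), was counted as higher, with a median of -0.08 and Clec10a at 1.68 and Ccr7 at -2.42 as its ends. Hba-a2 and Hbb-b2, the globin genes compared, were near background on all arrays (4.18 to 4.51 and 4.78 to 5.65). Hbb-bs, Hbb-bt and Hbb-b1 were not analysed here, so the level of globin mRNA as a whole was not measured. Counted were 0 of 4 erythroid, 0 of 3 megakaryocyte and 0 of 20 stromal and endothelial genes. Of progenitor and of mast cell or eosinophil genes, 0 of 6 and 0 of 2 were counted. The medians of these lists, in the same order, were -0.30, 0.79, 0.12, -0.26 and 0.27. The stromal list spread widely, from the collagen and matrix genes Col3a1 (2.59), Col1a1 (2.31) and Lum (1.84) to Cr2 (-3.45), the chemokine Cxcl13 (-2.36) and the lymphatic receptor Lyve1 (-1.56), and its median ranged from -0.22 to 0.63 over the alternatives. The medians of the dendritic cell (-0.51 to 0.25), progenitor (-0.62 to 0.26), growth factor (-0.14 to 0.18) and macrophage (-0.03 to 0.78) lists changed sign as well. Epx, the eosinophil peroxidase, read 2.03 to 2.10 on all arrays.

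Genes of proliferation and metabolism were close to level between the classes in their medians. These were -0.08 for 26 S phase, -0.06 for 24 mitosis, -0.13 for 32 MYC-activated, -0.13 for 18 glycolysis and hypoxia and -0.25 for 17 p53-activated genes, beside -0.04 for all genes. None of them was counted. That is near the shares of all genes, 1.58% higher and 1.37% lower, so nothing is read from it. With 4 lymphomas at each end the medians for S phase and mitosis were 0.16 and 0.20, and without double-transgenic replicate 5 that for glycolysis was 0.01. Single members went further, such as Cdkn1a (1.39) and Zmat3 (-2.10) of the p53 list and the hexokinase Hk1 (1.32) and glucose transporter Slc2a3 (-1.42) of the glycolysis list, all overlapping between the classes. Myc itself read 13.60, 13.78 and 14.02 in the rich class and 14.14, 14.01 and 14.03 in the poor class. Of 17 interferon response genes Ifi27l2a (-2.01) and Iigp1 (-1.51) were counted as lower, with a median of -0.61, and 0.14 with 4 lymphomas at each end. Usp18 (-1.87) overlapped between the classes, and Stat2 (0.54), Oas1a (0.50) and Oas2 (0.21) stood at the high end. The highest interferon values were in Eμ-Myc replicate 4, between the classes, where the list's mean log2 value was 9.43 against 6.38 to 8.87 in the others. Of 15 NF-kB response genes Ltb was counted as lower, followed by Relb (-1.39) and Nfkbie (-0.90), and Rel (0.29), Bcl3 (0.27) and Icam1 were highest. The median was -0.26, or -0.04 without double-transgenic replicate 2. Of 21 immediate-early genes 1, Klf4, was counted as higher, with a median of 0.20 and ends at Ier3 (1.42), Dusp2 (0.92), Egr1 (-1.48), Egr3 (-0.82) and Btg2 (-0.65). Of 7 complement and acute phase genes, Lcn2, Hp and Saa3 (1.03) were counted as higher, Cfb (-1.49) and Cfp (-0.42) were negative, and the median was 0.81. Saa3, serum amyloid A3, was highest in Eμ-Myc replicate 4, at 10.86.

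**Figure D5:**
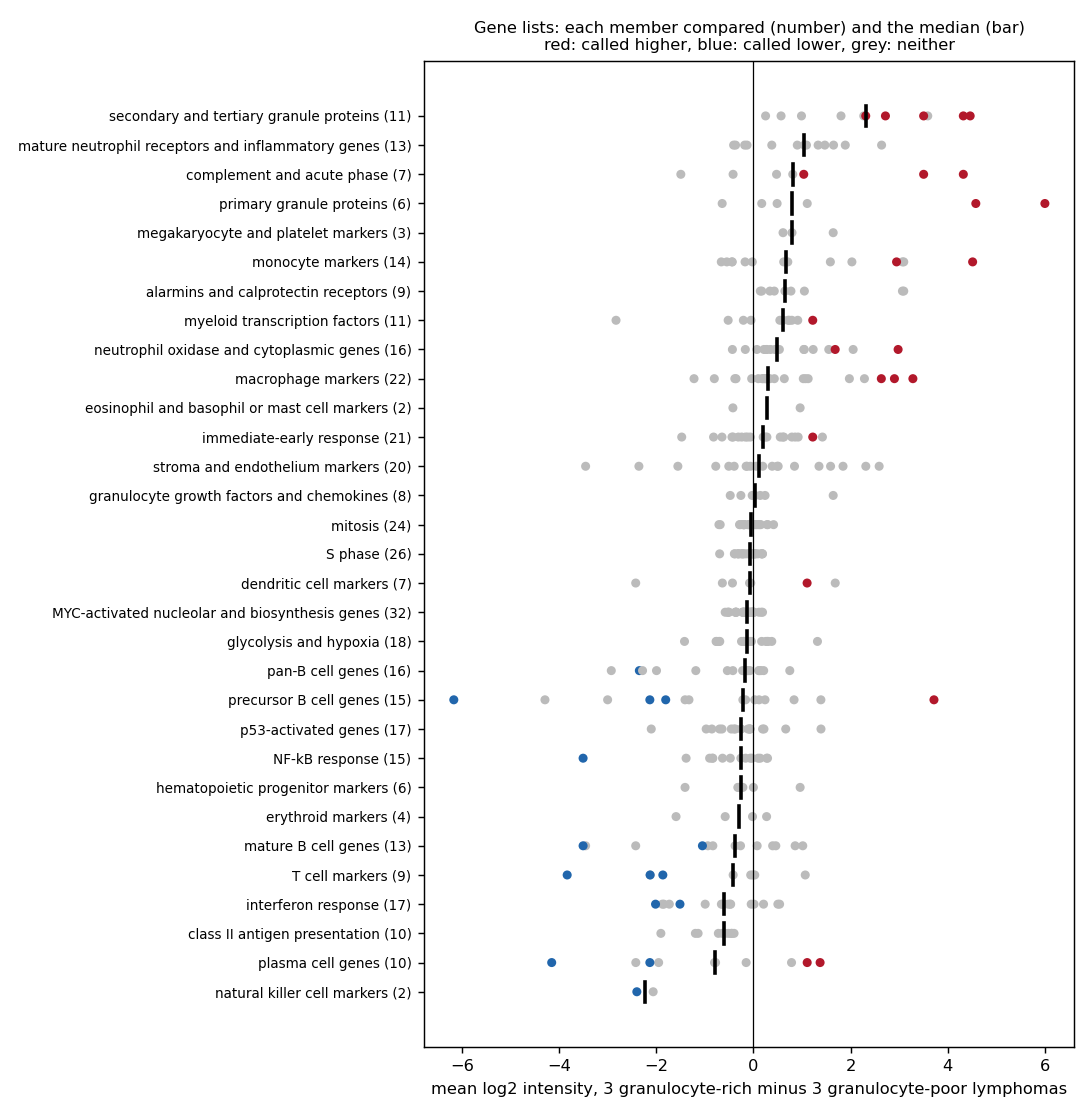
Difference of class means, rich minus poor, on the log2 scale (horizontal axis) for each compared member of 31 gene lists (rows, with the number compared), with red for genes counted as higher, blue for lower, grey for neither and a bar at the median. Secondary and tertiary granule proteins have the highest median among lists of at least 5 compared genes, 2.31, while mitosis and S phase genes gather near 0.

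The 3 granulocyte-rich lymphomas were not alike in the genes counted. Double-transgenic replicate 2 had the highest of the 3 rich values for 109 of the 161 genes counted as higher, and the lowest for 68 of the 139 counted as lower. For Eμ-Myc replicate 2 these numbers were 32 and 50, and for Eμ-Myc replicate 3 they were 20 and 21. The numbers include the counted granulocyte genes. How often each array was highest or lowest of the 3 over all genes compared was not computed, so they are given as a description only. The median SD over the 3 rich arrays was 0.79 for genes counted as higher, beside 0.35 for all genes. Over the 3 poor arrays it was 0.48 beside 0.24, so the rise in these chosen genes is not particular to the rich class. Without double-transgenic replicate 2, 190 genes were counted as higher and 243 as lower, of which 120 and 122 were among the 161 and 139. Leaving out a lymphoma eases the rule, so that these numbers were larger without every lymphoma, up to 359 higher without Eμ-Myc replicate 2 and 465 lower without Eμ-Myc replicate 3. Within the double-transgenic group, where replicate 2 alone was rich, 1006 genes higher and 793 lower met the rule, and no Eμ-Myc lymphoma was poor.

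The lymphomas between the classes were placed differently by the counted granulocyte genes and by the other genes. For each gene a lymphoma was placed on the rich side when its value was nearer the rich mean than the poor mean. Of the 9 counted granulocyte genes, Eμ-Myc replicate 4 was on the rich side for 7, double-transgenic replicate 4 for 3 and Eμ-Myc replicate 1 for 1. The filter fixed part of this, since a gene at background in the whole poor class passed only if a lymphoma between was above 4. Ltf and Mpo passed through Eμ-Myc replicate 4 (6.12 and 6.42), while Mmp8 and Ctsg, above 4 in the rich class only, did not pass. Of the other 152 genes counted as higher, they were on the rich side for 99, 108 and 55. Over all 10168 genes the shares were 51.8%, 52.2% and 43.6%. Double-transgenic replicate 4 thus lay on the rich side for 71.1% of those 152 genes, although its score was 7.42 and its Ltf and Mpo were at background. For the 139 genes counted as lower the numbers were 79, 68 and 54.

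Chromosome 3, which holds S100a8 and S100a9, had a median difference of -0.38 over 506 genes. It held 18 of the 139 genes counted as lower (12.95%, beside 4.98% of genes compared) and 1 of the 161 counted as higher. Relative to each gene's median over the 9 arrays, chromosome 3 stood at -0.21, -0.07 and -0.18 in the rich class and at 0.26, 0.26 and -0.01 in the poor class. The score genes on this chromosome thus went against its median, and the part of this shift in the lower genes was not tested. Chromosome 9, which holds Ngp, Camp and Ltf, had a median of -0.03. Among genes named above as lower, Lef1 and Bcar3 lie on chromosome 3.

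The genotypes were compared with the score taken into account, since the rule that made the classes did not use genotype. In limma with genotype and score as terms over all 9 arrays, 0 of 10168 genes had a Benjamini-Hochberg adjusted p under 0.05 (0% called), with a lowest adjusted p of 0.138 and 1325 genes at an unadjusted p under 0.05. Without the score, limma called 0 as well, with a lowest adjusted p of 0.768 and 577 genes at an unadjusted p under 0.05. Double-transgenic replicate 2 was the only double-transgenic lymphoma with a score above 7.42, so that among high scores the genotype difference rests on that lymphoma. Of the 161 genes counted as higher in the rich class, the median genotype difference, double-transgenic minus Eμ-Myc, was -0.39 alone and 0.58 with the score. Of the 139 counted as lower it was 0.73 alone and -0.20 with the score, and for all genes 0.05 and 0.06. The 161 and 139 genes were chosen against a poor class that was wholly double-transgenic. That choice favours the signs found without the score, and the score itself made the classes, so nothing is read from these medians.

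None of the genes with the smallest genotype p passed. Ptgir, the prostacyclin receptor, had a log2 difference of 4.41 with the score (SE 0.50, limma adjusted p = 0.138) and 2.37 without it. It read 2.36, 3.73, 5.44 and 3.82 in Eμ-Myc replicates 1 to 4 and 5.15, 9.57, 4.04, 7.36 and 4.94 in double-transgenic replicates 1 to 5. Arhgef39 had 2.85 (SE 0.36), and Mlec, a lectin of the endoplasmic reticulum, 1.11 (SE 0.15). In the other direction Nfkbiz, an atypical IκB protein, had -1.66 (SE 0.23), Endou, an endoribonuclease, -4.31 (SE 0.61) and Glcci1, a glucocorticoid-induced gene, -2.79 (SE 0.41). Their limma adjusted p was 0.138 each. Ptgir, Arhgef39 and Mlec were highest, and Nfkbiz, Endou and Glcci1 lowest, in double-transgenic replicate 2. Limma called 10 genes without Eμ-Myc replicate 1, 5 without Eμ-Myc replicate 3 and 1 without Eμ-Myc replicate 4, with no gene called in more than 1 of these fits.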

How the data were processed

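RNA of 9 lymphomas was measured on 1 Affymetrix mouse array each. The authors deposited linear intensity values per probe set, which the submitters' processing notes trace to GCRMA, with its version not given in the sources used here. Scanner files were not analysed here, so batches could not be examined, and the number of arrays limits the precision.

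Log2 was taken without a pseudocount. Of 45037 probe sets 34945 named 1 gene in the platform annotation, 932 several and 9160 none; 34741 matched GRCm38.p6. Each of 18193 genes was represented by its brightest probe set on average. Those above 4 (log2) on 4 or more arrays were compared, 10168 beside the 4 score genes. GCRMA leaves weak probe sets that still vary in log2, so differences of genes near background are poorly determined.

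The classes, the 31 gene lists (578 distinct members, 511 named, 382 compared) and the rules were chosen with earlier results of these data known. Named genes were the score genes, the 15 counted genes of each direction with the largest difference (skipping _x_at probe sets and predicted genes), at most 3 list members in either direction, the 10 most like the score, and 3 per direction with the smallest genotype p. Named list members are drawn from these, and any outside them were picked for their values. The genotype test was limma 3.58.1 in R 4.3.3 (lmFit, eBayes, two-sided, Benjamini-Hochberg, threshold 0.05). Methods were tested on simulated data with equal spread on all arrays and a score drawn without regard to genotype. That setting lacks the overlap of class and genotype and the wider spread of the rich class, so it does not cover them. Alternatives changed the filter, probe set choice, scaling, pseudocount, number of lymphomas per class, score genes and samples. The count of granulocyte-list genes under left-out lymphomas was added after seeing the data.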

Additional observations from a re-analysis of the deposited data

Results flagged for a closer look

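Of 96 groups of values tested (the score, its genes, the 30 genes of largest difference, the 10 most like the score and the 6 of the genotype fit, within each genotype), 19 held 1 lymphoma far from the rest, where chance gives about 1 in 20, or 4.8. Most of these genes were chosen for their difference between the classes or their likeness to the score, and double-transgenic replicate 2 is the only rich lymphoma of its genotype, so the choice of genes favours such values there and nothing is read from their number. Of the 19, 12 were in double-transgenic replicate 2.

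In double-transgenic replicate 2 the granule genes Camp read 8.82 (others of its genotype 3.97 to 4.11), Mpo 10.78 (2.26 to 2.72), Prtn3 10.60 (2.91 to 4.38), Ltf 7.32 (1.88 to 2.17) and Lcn2 8.77 (4.31 to 5.46). Selenok at 13.23 (12.74 to 12.78) and Mef2a at 10.62 (9.93 to 10.07), picked for their likeness to the score, also stood above the rest there. Lef1 at 4.90 (10.84 to 12.39), Grip1 at 2.21 (7.99 to 9.92), Mpp3 at 1.87 (7.38 to 9.33), Slamf7 at 2.88 (10.93 to 12.35) and Zap70 at 2.49 (7.36 to 8.87) stood below.

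Among Eμ-Myc lymphomas, replicate 1 was low for Ltf, at 2.07 (others 6.00 to 6.12), and for Arhgef39, at 4.42 (7.07 to 7.27). Replicate 2 was low for F13a1, at 7.06 (9.22 to 9.51), and for Lef1, at 2.06 (10.38 to 11.002). Replicate 4 was high for Adgre1, at 9.97 (8.02 to 8.28), for Mucl2, at 9.79 (2.88 to 3.89), and for Prol1, at 7.70 (2.37 to 2.66).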

How the results depend on the processing

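Of the 6 chosen lymphomas, 5 or 6 kept their class under scores from the same score genes or rescaled values, which share the values that made the classes. Under the scores from other genes, secondary and tertiary or primary granule genes, 4 kept it in each case. With primary granule genes the poor class was double-transgenic replicates 1 and 4 and Eμ-Myc replicate 1. The 161 higher and 139 lower genes became 402 and 307 with 2 lymphomas at each end, 93 and 56 with 4, 73 and 84 with the score from secondary and tertiary granule genes, 67 and 75 with that from primary granule genes, 1006 and 793 within the double-transgenic lymphomas, 490 and 697 with no size limit, and 59 and 59 at a difference of at least 2. With 1 lymphoma left out they ranged from 190 to 359 and from 196 to 465. Other filters, probe set choices, scalings, the pseudocount and the linear score gave 120 to 191 higher and 107 to 154 lower genes. The granulocyte-list count of 9 of 46 (19.6%, beside 1.58% of all genes) ranged from 9 to 17 with 1 left out. These are 19.6% to 37.0%, while the share of all genes was 1.87% to 3.53%. With 2 at each end it was 20 (43.5%, beside 3.95% of all genes). The rule is easier for every gene in these settings. Of 704 values of the 34 named genes under alternatives, 46 no longer met the rule, all with 4 at each end or another score, and 0 reversed. These 34 are the score genes and genes chosen by the rule itself. Other filters, left-out lymphomas and 2 at each end could hardly make them overlap, so nothing is read from the number kept. Of 323 list medians 14 moved by over 1 SD between arrays; the cause was not tested. The genotype count was 0 under every other setting and 0 to 10 with 1 array left out; Ptgir passed without Eμ-Myc replicate 1. Replicate numbers gave no sign of pairing the lymphomas (correlations of deviations -0.09, 0.09, 0.00 and 0.20). With a replicate block limma called 0 genes, but that fit left 2 residual degrees of freedom and cannot speak to pairing. The Eμ-Myc group has no poor lymphoma, so no value could be had within it. Genes near background limit the lower end of every difference.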
